A study of Mus musculus with 8 samples.

Results

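NFIX and NFIB binding was compared over 4 chromatin immunoprecipitation sequencing (ChIP-seq) libraries, 2 for each factor, made from granule neuron progenitors of the cerebellum of mice at postnatal day 7. The peaks of the 4 lists were merged wherever they overlapped by at least 1 bp, which gave 44738 regions. Of these, 124 held a peak of both NfiX libraries and of neither NfiB library (called NfiX only below), 9113 held a peak of both NfiB libraries and of neither NfiX library (NfiB only), and 6462 held a peak of all 4. The other regions, held by some other combination of lists, were counted but not described further unless stated.

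The series has 8 samples. The NfiX antibody was from Sigma Aldrich, and for NfiB the sample labels name Novus Biologicals where the design text of the series names Sigma. For each factor 1 library came from CD1 mice, an outbred strain, and 1 from mice of a mixed background described as similar to CD1. No genotype or treatment separates the groups, which share tissue, age and cell isolation and differ in the antibody. The labels do not say that the libraries came from separate animals, so p-values here speak of the spread between these libraries alone, which may be technical. Peak lists hold no expression values, so the cell type could not be checked against its markers. The 2 NfiA libraries were used to ask which of the regions NFIA also held and to rank the regions that NFIA shared. They also served to keep the windows 1 kb from summits free of peaks. The 2 input samples were not analysed here.

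Granule neuron progenitors divide in the outer layer of the postnatal cerebellum, then leave the cell cycle, extend axons and migrate inward as granule neurons. The nuclear factor I (NFI) proteins are transcription factors with closely related DNA-binding domains, and they act in the differentiation of these cells. They bind DNA as dimers, best at a palindrome with 2 half-sites of the type TTGGC in opposite directions, and more weakly at a single half-site.

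Peaks are described by the authors' fold enrichment, the fragments at a summit over the local background, which was used only to rank peaks within a list. In the 6462 regions held by all 4 lists, each library's folds were turned into percentile ranks from 0 to 100 over those same regions. A region was said to lean to a factor when both of its libraries ranked it above both libraries of the other factor. By this rule 1453 regions leaned to NfiX (22.5%) and 1809 to NfiB (28.0%). These are the shares over all 6462 regions, and leaning rests on the ranks themselves, so the ranks of leaning regions are a description. The share that would lean without any difference between the factors was not estimated. Over these regions the Spearman correlation of fold was 0.650 between the NfiX libraries and 0.789 between the NfiB libraries. Between the factors it was 0.674 within Mixed and 0.452 within CD1. It was 0.562 for NfiX Mixed with NfiB CD1 and 0.396 for NfiX CD1 with NfiB Mixed. NfiX Mixed was thus no closer in order to NfiX CD1 than to NfiB Mixed.

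Windows of leaning regions are printed below to show the palindrome in place. DNA could be read only where a 101 bp window around the strongest summit lay inside an annotated exon (GENCODE M21 transcripts) or a promoter (RefSeq, GRCm38.p6), which was the case for 285 of the 6462 regions (4.41%). Coordinates are on GRCm38 (mm10). Capitals mark the NFI palindrome TGGCNNNNNGCCA where it is present and otherwise the half-site TTGGCA, on either strand. The windows below had the largest rank difference towards NfiX among the readable regions once untranslated exons, which are not printed here, were left out. Syne3 is a coding exon of a nuclear envelope gene (minus strand, chr12:104969225-104969325), Zxdc a coding exon of a zinc finger gene (plus strand, chr6:90382272-90382372), Gm19113 a processed pseudogene (minus strand, chr9:26367680-26367780) and Gm47471 an exon of an antisense RNA gene, within an intron of Ptprm (plus strand, chr17:66745191-66745291).
Syne3: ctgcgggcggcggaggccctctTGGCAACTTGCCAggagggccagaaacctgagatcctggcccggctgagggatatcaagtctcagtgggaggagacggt
Zxdc: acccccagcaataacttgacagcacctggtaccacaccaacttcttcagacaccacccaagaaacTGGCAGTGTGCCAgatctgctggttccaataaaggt
Gm19113: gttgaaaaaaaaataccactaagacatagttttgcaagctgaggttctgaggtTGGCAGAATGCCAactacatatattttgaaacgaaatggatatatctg
Gm47471: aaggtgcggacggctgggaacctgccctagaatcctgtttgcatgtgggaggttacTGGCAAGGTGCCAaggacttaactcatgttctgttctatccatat

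The windows with the largest rank difference towards NfiB are shown for contrast. They lie in an intron of Nae1 that is retained in 1 annotated transcript (minus strand, chr8:104529788-104529888), in the noncoding gene 1500012K07Rik (plus strand, chr7:75329857-75329957) and in a coding exon of Ptk2b, a tyrosine kinase gene (minus strand, chr14:66154098-66154198).
Nae1: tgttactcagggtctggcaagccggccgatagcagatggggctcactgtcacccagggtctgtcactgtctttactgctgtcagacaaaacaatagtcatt
1500012K07Rik: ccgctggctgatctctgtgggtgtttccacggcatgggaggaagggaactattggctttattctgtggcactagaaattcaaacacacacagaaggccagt
Ptk2b: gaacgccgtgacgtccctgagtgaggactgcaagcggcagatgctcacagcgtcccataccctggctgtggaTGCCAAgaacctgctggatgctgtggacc

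A window from a region held by both NfiX libraries and neither NfiB library, in an exon of Gm47388, a gene model of unproven status (plus strand, chr10:44697297-44697397), is set beside a promoter held by both NfiB libraries and neither NfiX library, that of Hdac9, a histone deacetylase gene (minus strand, chr12:34528907-34529007).
Gm47388: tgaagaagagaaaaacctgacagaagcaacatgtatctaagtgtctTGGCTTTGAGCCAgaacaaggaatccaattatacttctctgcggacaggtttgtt
Hdac9: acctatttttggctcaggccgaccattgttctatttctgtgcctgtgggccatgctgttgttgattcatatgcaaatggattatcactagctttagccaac

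The 4 printed windows that leaned to NfiX carried the palindrome, and the 3 that leaned to NfiB did not. With untranslated exons included, 9 of the 10 readable regions leaning most to NfiX held it, as did 0 of the 10 leaning most to NfiB. The exception, in an untranslated exon nearest to Clec9a, had the third largest difference, with ranks of 90.2 and 71.7 in NfiX CD1 and Mixed and 7.75 and 12.4 in NfiB CD1 and Mixed. At Syne3 the rank was 78.9 in NfiX CD1 and 91.6 in NfiX Mixed, against 11.7 in NfiB CD1 and 10.5 in NfiB Mixed. At Nae1 the order was turned, with ranks of 7.18 and 51.5 in NfiX CD1 and Mixed and of 80.2 and 77.1 in NfiB CD1 and Mixed. At Gm47388 the authors' folds were 7.16 in NfiX CD1 and 5.39 in NfiX Mixed. The Hdac9 promoter had folds of 6.22 in NfiB CD1 and 8.88 in NfiB Mixed. Its window held neither the palindrome nor the half-site TTGGCA, though the shorter TTGGC is present. Of the 3 strongest readable NfiB-only promoters none held the palindrome, and 1, that of D7Ertd443e, held the half-site TTGGCA.

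The palindrome followed the lean in the readable windows as a whole. It was present in 61 of 91 windows of regions leaning to NfiX (67.0%, 95% Wilson interval 56.9 to 75.8), in 1 of 70 leaning to NfiB (1.43%, 0.253 to 7.66) and in 11 of 124 leaning to neither (8.87%, 5.03 to 15.2). Intervals here and below cover counting error only. Windows of the same length were also read 1 kb from the summits of all 6462 regions, where readable and free of peaks. They are not matched to the windows above. They held the palindrome in 0 of 349 cases outside promoters and 0 of 57 at promoters, which allows shares of up to 0.860% and 5.26%. Of all 20143 RefSeq promoters of 300 bp, 0.799% held it. The choice of summit did not change this: with windows centred on each library's own summit the share was 63.6 to 66.7% in regions leaning to NfiX and 1.41 to 2.94% in those leaning to NfiB.

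When the 6462 regions were ordered by the mean NfiX rank minus the mean NfiB rank and cut into quintiles, the palindrome was found in 0 of 49 readable windows in the quintile most towards NfiB (up to 6.12% is allowed), then in 1 of 57, 5 of 52, 14 of 54 and, in the quintile most towards NfiX, 53 of 73 (72.6%, 61.4 to 81.5). The share was thus higher in each quintile than in the one before. The longer palindrome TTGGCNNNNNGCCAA, with 1 more base on each arm, was found in 17 windows leaning to NfiX and in none leaning to NfiB or to neither. With the arms set 8 bases apart in place of 5 (TGGCNNNNNNNNGCCA), 0 of 91 windows leaning to NfiX and 0 of 70 leaning to NfiB held a match, which allows shares of up to 3.30% and 4.29%. The half-site TTGGCA differed less, with 50.5% (40.5 to 60.6) in windows leaning to NfiX and 35.7% (25.5 to 47.4) in those leaning to NfiB, and some of these half-sites lie within a palindrome.

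The same relation was measured in each library on its own. In NfiX CD1 the median rank was 63.9 over the 73 readable regions with the palindrome and 32.5 over the 212 without it. In NfiX Mixed the medians were 50.5 and 35.3. They were 19.0 and 41.8 for NfiB CD1 and 22.2 and 44.8 for NfiB Mixed. Among regions held by all 4, those with the palindrome thus ranked higher in both NfiX libraries and lower in both NfiB libraries. The differences were 31.4 and 15.2 in the NfiX libraries and -22.8 and -22.6 in the NfiB libraries, and the 2 factors did not overlap. The difference between the factors was 46.0 rank points (exact two-sided permutation over the 4 libraries, p = 0.333, the smallest that 2 against 2 allows). Regions enter this set only with a peak in every list, including the short NfiX CD1 list. The part of this filter in the NfiB ranks was not tested. Over whole NfiB lists the palindrome was not rarer at strong peaks. It was found at 5.50% of readable NfiB CD1 summits and at 10.9% among the 7497 strongest peaks by fold. In NfiB Mixed the shares were 5.03% and 9.0%.

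**Figure D1:**
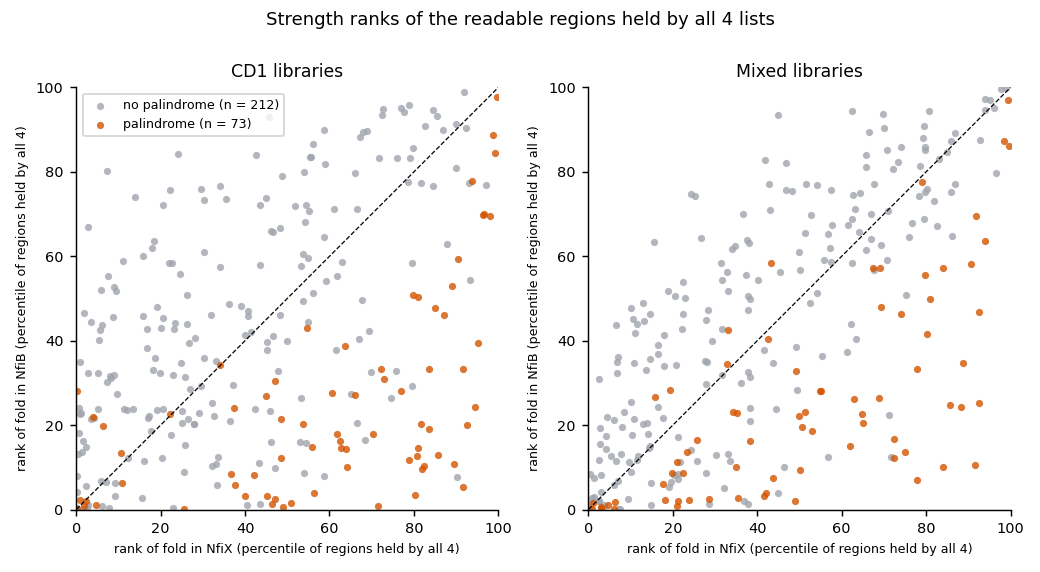
Percentile rank of fold in NfiX (x axis) against NfiB (y axis) for the 285 readable regions held by all 4 lists, in the CD1 libraries (left) and the Mixed libraries (right), with the line of equal rank dashed. Of the 73 regions with the NFI palindrome (orange), 65 in CD1 and 67 in Mixed lie below the line, on the NfiX side, against 77 and 74 of the 212 without it (grey).

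Places and region types gave the same direction. The difference between the factors was 51.1 outside promoters (58 regions with and 173 without the palindrome) and 40.9 at promoters (15 and 39). With the longer palindrome it was 46.7 (17 regions with and 268 without, the latter including those with only the shorter palindrome). Median ranks then differed by 50.5 in NfiX CD1 and 42.3 in NfiX Mixed. In NfiB CD1 and Mixed they differed by 0.553 and -1.27, so the lower NfiB ranks were not seen with the longer palindrome. Regions leaning to NfiX had a lower local background than those leaning to NfiB, with medians of 1.61 and 3.39 fragments in NfiX CD1 and of 2.63 and 5.25 in NfiB CD1, and they were narrower as merged regions, with medians of 416 and 641 bp. The peaks of NfiB CD1 within them had median widths of 362 and 598 bp and those of NfiX CD1 268 and 249 bp. Among readable regions with a lower local background in NfiB CD1 than their median the difference was 55.9, and among those with a higher one 35.1. Among narrower regions it was 45.6 and among wider ones 50.0.

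Other motifs were measured in the same way. The half-site in regions without the palindrome went with a difference of -4.50 rank points between the factors (63 regions with and 149 without, exact permutation p = 0.667). The E-boxes CAGCTG and CAGATG, the type of element that proneural basic helix-loop-helix factors bind, went the other way, with a difference of -20.1 (110 and 175 regions, exact permutation p = 0.333). Unlike the half-site, the E-boxes were counted over all readable regions, including the 73 with the palindrome. The part of the palindrome in the E-box difference was not tested. CAGATG was found in 34.3% (24.2 to 46.0) of the windows leaning to NfiB, 29.0% (21.8 to 37.6) of those leaning to neither and 6.59% (3.06 to 13.6) of those leaning to NfiX. CAGCTG was found in 14 of 70, 24 of 124 and 13 of 91 windows in the same order, and the intervals of these shares overlap. Outside promoters 25.1% of the windows of all regions held by the 4 lists had CAGATG, and 6.88% of the windows 1 kb away. Over the 265 readable regions that both NfiA libraries also held, the palindrome went with differences of 6.70 in NfiA CD1 and 3.43 in NfiA Mixed, between those of NfiX (32.2 and 15.6) and NfiB (-23.3 and -24.6).

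**Figure D2:**
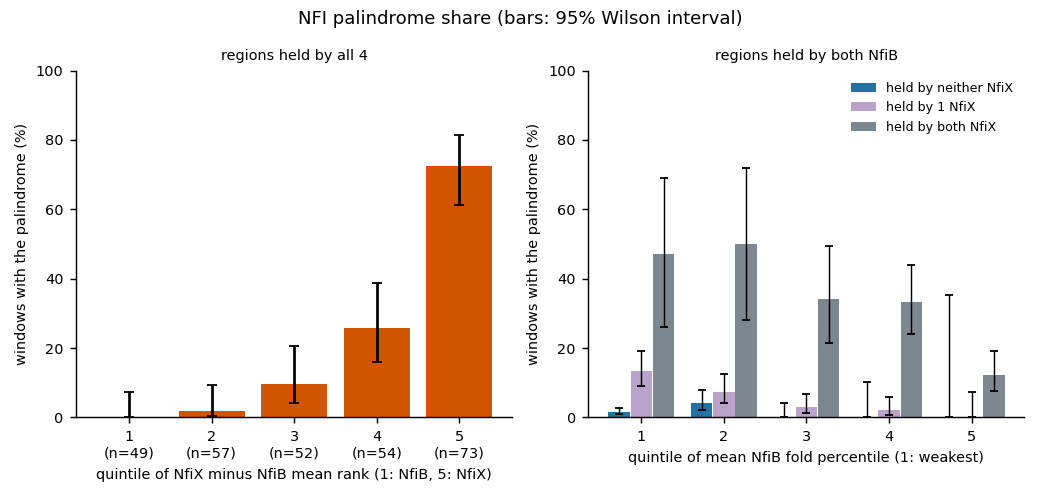
Share of readable windows with the NFI palindrome (y axis, percent, 95% Wilson intervals). Left, regions held by all 4 lists in quintiles of the NfiX minus NfiB rank difference, from 0% in the quintile towards NfiB to 72.6% in the quintile towards NfiX. Right, regions held by both NfiB lists in quintiles of NfiB fold, where regions that both NfiX lists also hold have the highest share in each quintile.

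The presence of NfiX peaks went with the palindrome as well. Among regions held by both NfiB libraries, the weakest quintile by NfiB fold held the palindrome in 15 of 875 windows without an NfiX peak (1.71%, 1.04 to 2.81), in 23 of 172 with a peak of 1 NfiX library (13.4%, 9.08 to 19.3) and in 8 of 17 with both (47.1%, 26.2 to 69.0). In the strongest quintile 16 of 130 regions held by both NfiX libraries had it (12.3%, 7.72 to 19.1), and none of the 7 with no NfiX peak, too few to compare. Over all readable windows, 1.58% (11 of 696) of NfiB-only promoters, 2.38% (12 of 505) of other NfiB-only regions, 27.8% (15 of 54) of promoters held by all 4 and 25.1% (58 of 231) of other regions held by all 4 had the palindrome. Only 3 windows of NfiX-only regions could be read, and all 3 held it (43.9 to 100%).

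Library by library, the palindrome was found at 27.7% of the 329 readable summits of NfiX CD1 and 14.4% of the 1214 of NfiX Mixed, against 5.50% of 3220 in NfiB CD1 and 5.03% of 2940 in NfiB Mixed. Both NfiX libraries lay above both NfiB libraries, by 15.8 percentage points on average (22.2 within CD1 and 9.38 within Mixed, exact permutation p = 0.333). The NfiX CD1 list is the shortest, with 7497 peaks against 21443, 36431 and 33283. With the 7497 strongest peaks by fold from each list, the shares were 27.7%, 26.3%, 10.9% and 9.0% in the same order.

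The regions leaning most to NfiX were mostly far from transcription start sites. The 8 with the largest rank difference had as nearest genes Fam107b, Gulp1, Gm9758, Pnoc, Meis1, Hand2, Atp6v1d and Sox8, and the nearest gene is a neighbour and not a shown target. The region at Gulp1, an adaptor for the engulfment of dying cells, was the 1 promoter among them (chr1:44553179-44553614, 0.799 kb from the start), with ranks of 93.5 and 87.7 in NfiX CD1 and Mixed and 8.31 in both NfiB libraries. A region in an intron of Pnoc, the precursor of the neuropeptide nociceptin, had ranks of 85.6 and 92.4 in NfiX and 9.61 and 7.68 in NfiB (chr14:65403841-65404184). A region 235 kb from the start of Meis1, a homeobox gene of granule cell progenitors, had ranks of 90.4 and 86.2 in NfiX and 11.3 and 6.95 in NfiB (chr11:19253763-19254209). In each of these 3 the NfiX ranks were above 85 and the NfiB ranks below 12.

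Among the 8 regions leaning most to NfiB, near Cxxc4, Zc2hc1b, Galr1, Auts2, Arid1b, Nhs, Map3k7 and Pax5, none was at a promoter. A region within a noncoding gene 268 kb from Cxxc4, an inhibitor of Wnt signalling, had ranks of 1.50 and 9.56 in NfiX CD1 and Mixed and 86.1 and 75.9 in NfiB CD1 and Mixed (chr3:133968159-133968756). An intronic region of Auts2, a regulator of neuronal development, had ranks of 5.55 and 17.1 in NfiX and 83.6 and 63.3 in NfiB (chr5:131680305-131680983). A region 326 kb from Arid1b, a subunit of a chromatin remodelling complex, had ranks of 8.14 and 40.2 in NfiX and 84.6 and 87.9 in NfiB (chr17:4668372-4669030). NfiX Mixed ranked the Arid1b region far above NfiX CD1, but still below both NfiB libraries.

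Regions leaning to NfiX lay nearer to genes, with a median distance of 47.7 kb from the nearest protein-coding start against 72.9 kb for those leaning to NfiB. Of the 161 promoters held by all 4 lists, 36.0% (29.0 to 43.7) leaned to NfiX and 28.0% (21.6 to 35.3) to NfiB. Of the 3015 intergenic regions, 19.4% (18.1 to 20.9) leaned to NfiX and 29.1% (27.5 to 30.7) to NfiB. With ranks by the authors' −log10 p in place of fold, 32.9% of promoters and 19.5% of intergenic regions leaned to NfiX.

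Turning from strength to presence, regions with NfiX peaks nearly always had NfiB peaks as well, and the reverse held less often. Of 6846 regions held by both NfiX libraries, 94.4% (93.8 to 94.9) were also held by both NfiB libraries and 98.2% by at least 1. Of 26105 regions held by both NfiB libraries, 65.1% (64.5 to 65.7) held a peak of at least 1 NfiX library. The most frequent pattern, with 10311 regions, was a peak of both NfiB libraries and of NfiX Mixed but not of NfiX CD1.

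**Figure D3:**
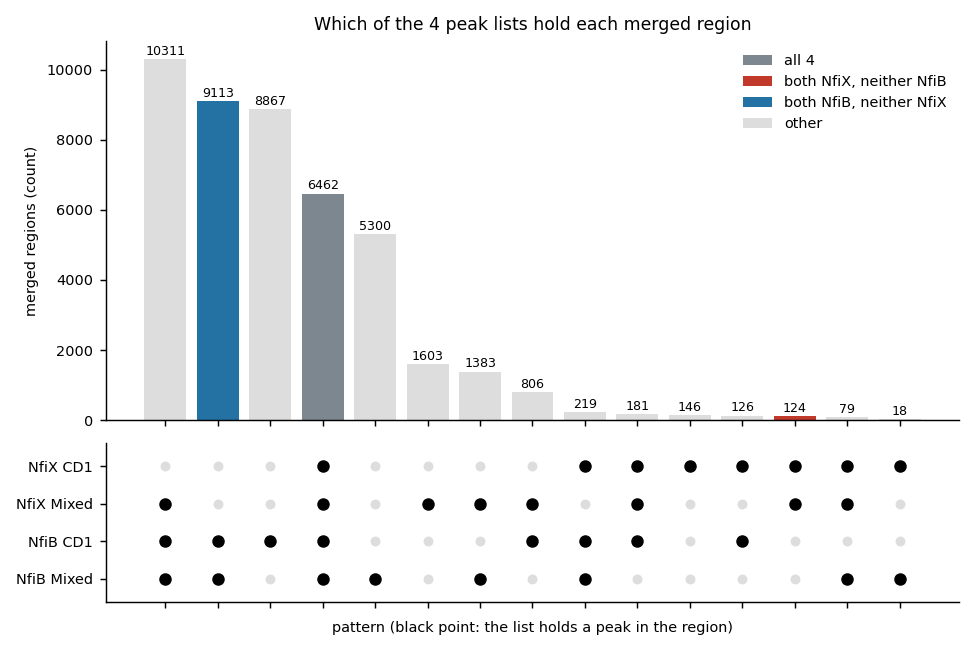
Number of merged regions (y axis, count) for each of the 15 patterns of the 4 peak lists, with black points marking the lists that hold a peak. The 124 NfiX-only regions (red) are among the rarest patterns, against 9113 NfiB-only regions (blue) and 6462 held by all 4 (dark grey).

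These counts move with list length, and the part of depth in them was not tested. The lowest local background, an index of depth, was 0.856 and 0.960 fragments in NfiX CD1 and Mixed and 1.35 and 1.39 in NfiB CD1 and Mixed, and the NfiX lists are the shorter ones. With the 7497 strongest peaks by fold from each list, 722 regions were NfiX only, 598 were NfiB only and 3467 were held by all 4, so the NfiX-only set was then the larger of the 2. With such cut lists, NfiX only means no peak among the 7497 strongest of either NfiB list, and NfiB only the reverse. A weaker peak of the other factor may be present, and in the full lists 124 regions were NfiX only. In the sets from the cut lists the palindrome was present in 27 of 35 readable NfiX-only windows (77.1%, 61.0 to 87.9) and 1 of 29 readable NfiB-only windows (3.45%, 0.611 to 17.2). Without the NfiX CD1 library 1728 regions were NfiX only, and without the NfiX Mixed library 19430 were NfiB only.

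NfiX-only regions had a median merged width of 268 bp, against 341 bp for NfiB only and 571 bp for all 4, where peaks of more lists are joined. Single peaks of NfiX CD1 had a median width of 199.5 bp in NfiX-only regions and 252 bp in regions held by all 4, and those of NfiX Mixed 239.5 and 372 bp. In their own lists NfiX-only peaks stood near the middle by fold, with median percentiles of 54.9 in NfiX CD1 and 60.0 in NfiX Mixed. Above the 90th percentile were 1 and 3 of the 124. Outside promoters they were weaker by −log10 p, with medians of 9.91 in NfiX CD1 and 11.6 in NfiX Mixed. Regions held by all 4 had 13.0 and 25.9 there, and more fragments at their summits by median. The median local background of NfiX-only peaks was low outside promoters, 0.969 fragments in NfiX CD1 and 1.07 in NfiX Mixed. The lowest values of these lists were 0.856 and 0.960. The part of this background in their folds was not tested. Of the 124, 7 lay within 1 kb of an NfiB peak.

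The NfiX-only region with the highest mean percentile was in an intron of Specc1l, a cytoskeletal crosslinker gene, with folds of 14.5 in NfiX CD1 and 9.18 in NfiX Mixed (chr10:75224674-75224946, 5.05 kb from the start). The region in an intron of Nrg3, a ligand of the ErbB4 receptor, had folds of 10.2 in both libraries (chr14:39438758-39439020), and that in an intron of Kif26b, a kinesin family gene, 9.55 and 10.3 (chr1:178848736-178848997). Both NfiA libraries also held a peak in these 3 regions. Others among the 10 highest lay in an untranslated exon of Kcnb2, a potassium channel gene (folds of 9.16 and 10.7), in an intron of Htr2c, a serotonin receptor gene (7.54 and 10.7), in an intron of Asb13 (7.01 and 12.2), and between genes nearest to Zpld1, Epcam, Asnsd1 and Diaph2. Within its list each of these 10 peaks was above the 67th percentile.

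NfiB-only regions were mostly weak peaks. By fold they had a median percentile of 36.4 in NfiB CD1 and 30.2 in NfiB Mixed, against 88.7 and 86.5 for regions held by all 4. The strongest, 91.2 kb from the start of Cnr1, the cannabinoid receptor of neurons, had folds of 17.5 in NfiB CD1 and 12.4 in NfiB Mixed (chr4:33833110-33833628). Intronic regions of Tex14, a gene of germ cell bridges (folds of 17.1 and 11.0), and of Prrx1, a homeobox gene of mesenchyme (13.9 and 11.5), were also among the 10 highest, with regions nearest to Tcte2, Sult1c1, Dnah5, Htr1a, Kcnc1, Thumpd2 and Arl4d. Each of these 10 was at or above the 87th percentile in both NfiB lists, and each had a peak in NfiA CD1.

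The place of the strongest summit differed most at promoters, meaning within 1 kb of a protein-coding transcription start. Promoters made up 1 of 124 NfiX-only regions (0.806%, 0.143 to 4.43), 1282 of 9113 NfiB-only regions (14.1%, 13.4 to 14.8) and 161 of 6462 regions held by all 4 (2.49%, 2.14 to 2.90). Introns held 46.0%, 41.0% and 41.3% of the sets in the same order, and 44.4%, 34.6% and 46.7% were intergenic. The promoter contrast between the sets turned with the 7497 strongest peaks by fold from each list, where promoters made up 25 of 722 NfiX-only regions (3.46%, 2.36 to 5.06) and 9 of 598 NfiB-only regions (1.51%, 0.794 to 2.84). By −log10 p it kept its direction, with 3.89% (2.72 to 5.53) and 7.08% (5.40 to 9.24). Coding exons held 0 of 124 NfiX-only regions, which allows up to 2.42%, 2.11% of NfiB-only regions and 1.02% of those held by all 4.

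**Figure D4:**
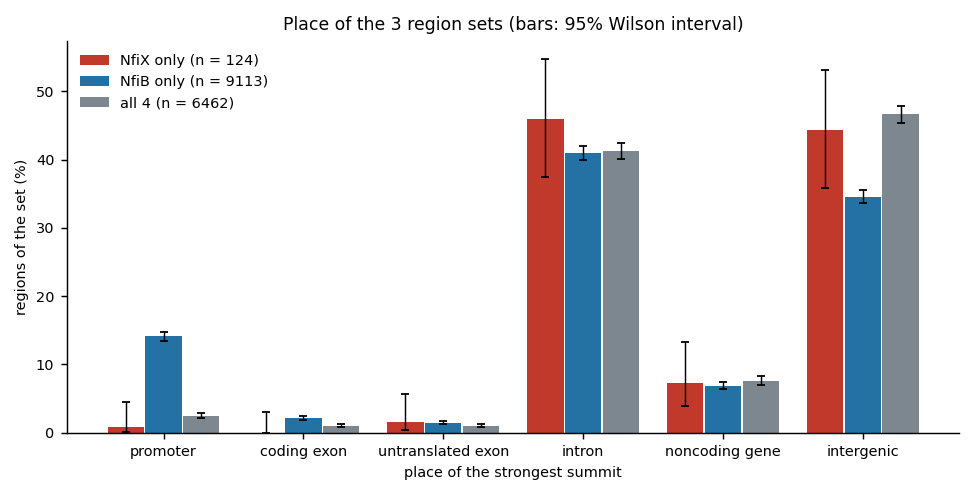
Share of regions (y axis, percent, 95% Wilson intervals) by place of the strongest summit for 124 NfiX-only, 9113 NfiB-only and 6462 regions held by all 4. Promoters hold 14.1% of NfiB-only regions, against 0.806% and 2.49% of the others, an order that turns with lists of equal length by fold.

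Among whole lists the promoter share was 2.35% and 3.93% in NfiX CD1 and Mixed and 8.60% and 8.12% in NfiB CD1 and Mixed. The factors did not overlap, and NfiX was lower by 5.22 percentage points (NfiX minus NfiB, -6.25 within CD1 and -4.19 within Mixed, exact permutation p = 0.333). The 7497 strongest peaks by fold from each list turned the direction, with 2.35%, 1.79%, 1.64% and 1.65%. When the 7497 were taken by −log10 p, the direction stayed, with 2.35%, 2.92%, 3.27% and 3.28%. The median peak width was 244 and 276 bp in the NfiX libraries and 320 and 321 bp in the NfiB libraries, a difference of -60.5 bp (exact permutation p = 0.333).

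The promoters that both NfiB lists held were weak by fold. The weakest quintile of NfiB regions held 1329 of them, and the strongest 72. In that weakest quintile an NfiX Mixed peak was present at 16.7% (14.8 to 18.8) of promoters and 25.9% (24.5 to 27.3) of other regions. In quintiles 2 and 3 the order turned, with 56.6% and 76.3% of promoters and 44.9% and 66.0% of other regions, in quintile 4 the shares were 85.7% and 87.3%, and in the strongest quintile both were at 98.6%. With strength by −log10 p, promoters had NfiX Mixed peaks less often in the 4 weaker quintiles, for example 44.6% (39.7 to 49.6) against 66.2% (64.9 to 67.5) in quintile 3.

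**Figure D5:**
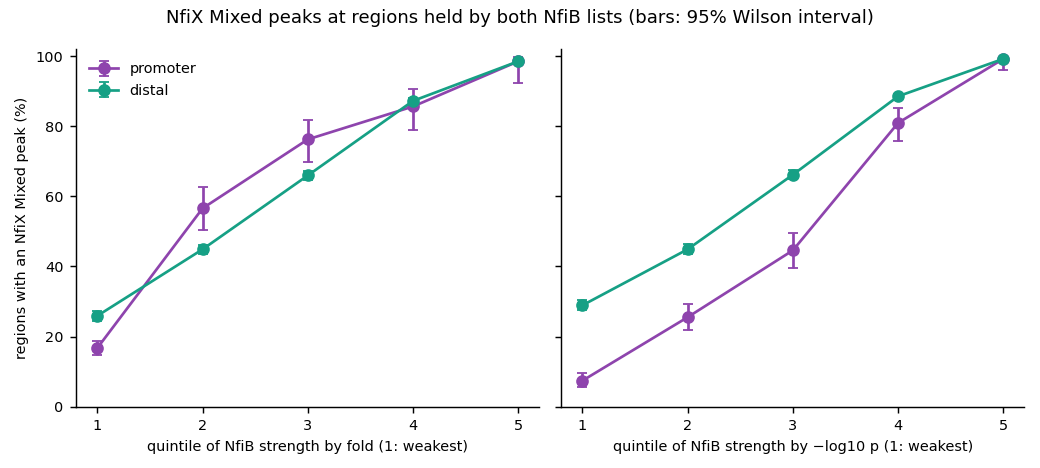
Share of regions held by both NfiB lists that also hold an NfiX Mixed peak (y axis, percent, 95% Wilson intervals) in quintiles of NfiB strength by fold (left) and by −log10 p (right), for promoters and other (distal) regions. By fold the lines cross between quintiles 1 and 2 and again between quintiles 3 and 4, and by −log10 p promoters lie below until the strongest quintile, where both are at 99.3%.

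The local background moved with these shares. At NfiB-only promoters it was 12.1 fragments in NfiB CD1 and 12.7 in NfiB Mixed (medians), against 3.82 and 3.94 at other NfiB-only regions and 6.68 and 6.96 at promoters held by all 4. Their summits held 41.0 fragments in both libraries, more than the 25.0 and 22.0 of other NfiB-only regions. The part of the background in the low folds of NfiB-only promoters was not tested.

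Promoter sequence was compared between the sets. RefSeq promoters, from 250 bases before to 50 after a start, could be matched for 841 promoters with an NfiB-only region and 69 with a region held by all 4. The palindrome was found in 1.66% of the first and 29.0% of the second, against 0.799% of all promoters. CpG pairs numbered 22.0 in the first and 9 in the second (medians), against 14.0 over all promoters. The ETS element CCGGAAG was found in 22.5% of the promoters with an NfiB-only region, in 14.5% of those held by all 4 and in 11.9% of all promoters. The 1268 promoters with a peak of any other pattern were close to those with an NfiB-only region, with the palindrome in 2.21%, a median of 21.0 CpG pairs and the ETS element in 19.6%.

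The NfiB-only promoter with the highest mean percentile was that of Scrn1, a secernin gene, with folds of 11.9 in NfiB CD1 and 11.3 in NfiB Mixed (chr6:54553619-54553949). The promoter of Sh3kbp1, an adaptor of receptor endocytosis, had folds of 10.3 and 7.10 (chrX:159697679-159698162), and that of Chd3, a chromatin remodelling helicase, 9.38 and 7.03 (chr11:69362041-69362435). Eapp, Krtap15 and Kcnb2 were the others of the 6 highest. Kcnb2 thus had an NfiB-only region at its promoter (folds of 7.97 and 8.17) and an NfiX-only region in an untranslated exon.

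Both NfiA libraries had a peak in 93.8% (93.2 to 94.4) of regions held by all 4, in 16.1% (10.7 to 23.6) of NfiX-only regions and in 15.1% (14.4 to 15.9) of NfiB-only regions. The intervals of the NfiX-only and NfiB-only shares overlap. No NfiA peak was found in 45.2% of NfiX-only, 49.2% of NfiB-only and 0.681% of regions held by all 4. NfiA Mixed, with or without NfiA CD1, had a peak in 41.9%, 41.3% and 97.8%. Among NfiB-only regions the share was 8.27% (6.88 to 9.90) at promoters and 16.3% (15.5 to 17.1) elsewhere. The sets of the 7497 strongest peaks had shares of 74.1% for NfiX only and 87.6% for NfiB only.

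Each region was assigned to a protein-coding gene, the one whose start was nearest, within 100 kb. Of 21829 such genes, 0.339% were nearest to an NfiX-only region, 19.5% to an NfiB-only region, 5.59% to an NfiB-only promoter region and 12.1% to a region held by all 4. Genes with regions were long: the median gene spanned 40.0 kb near NfiB-only regions and 50.5 kb near regions held by all 4, against 16.9 kb over all genes. Counts for the lists below are to be read against these shares, and the part of gene length in them was not tested.

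Genes of granule neuron differentiation had regions of both kinds, 25 of 29 near an NfiB-only region and 18 of 29 near a region held by all 4 (median gene 77.5 kb). Mef2a, a transcription factor of granule neuron maturation, had an intronic region held by all 4 with ranks of 98.0 and 97.6 in NfiX CD1 and Mixed and 75.3 and 73.9 in NfiB CD1 and Mixed (chr7:67259875-67260373). Neurod1, a proneural factor, and Chd7, a remodelling helicase, had NfiB-only regions at their promoters, with folds of 5.12 and 4.28 and of 8.87 and 6.54. Rbfox1, a splicing regulator, was the 1 member with an NfiX-only region (folds of 4.89 and 6.17), and it also had an NfiB-only promoter region and a region held by all 4.

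Of 30 genes of granule progenitors, 20 were near an NfiB-only region, 8 at the promoter, and 12 near a region held by all 4 (median gene 22.5 kb). Mycn, a driver of progenitor division, had an NfiB-only region at its promoter with folds of 4.75 and 3.72, and Zic1, a zinc finger factor of these cells, one with 5.73 and 4.10. Cdon, a Sonic hedgehog co-receptor, had both kinds: a region 66.4 kb away was held by all 4 with ranks of 90.2 and 89.2 in NfiX and 51.1 and 51.6 in NfiB, and a region 60.2 kb away was NfiB only. Gli2, a transcription factor of the hedgehog pathway, had an intronic region with ranks of 72.9 and 61.5 in NfiX and 88.9 and 82.4 in NfiB.

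Axon and adhesion genes were near regions of both kinds. In axon guidance 28 of 35 genes were near an NfiB-only region and 20 near a region held by all 4 (median gene 197 kb), and in cell adhesion 24 and 20 of 32 (359.7 kb). Ephb1, an ephrin receptor gene, and Ncam1, a neural adhesion gene, were the members with NfiX-only regions (folds of 8.64 and 5.30, and of 6.46 and 4.76). Regions held by all 4 near the axon guidance list leaned to NfiX in 4 and to NfiB in 12 of 36 cases (11.1% and 33.3%, against 22.5% and 28.0% of all such regions). At Robo2, a receptor of Slit ligands, an intronic region had ranks of 84.1 and 83.7 in NfiX and 86.4 and 87.4 in NfiB and leaned to NfiB by these small margins.

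Ion channel genes had 24 of 33 members near an NfiB-only region and 18 near one held by all 4 (249 kb), and 10 of their 32 regions held by all 4 leaned to NfiX (31.2%, against 22.5% of all such regions) and 5 to NfiB (15.6%, against 28.0%). These list differences rest on few regions and were not tested. Scn3a, a sodium channel gene, and Cacna2d1, a calcium channel subunit gene, had intronic NfiX-only regions with folds of 5.71 and 6.97 and of 6.10 and 4.88. For neuronal migration the counts were 13 and 11 of 21, and for synapse genes 16 and 12 of 34. At Srgap2, a regulator of neuronal migration, an intronic region ranked above 97 in all 4 libraries.

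In the lists of genes with general functions, NfiB-only regions at promoters are to be read against 1221 of the 4260 genes near such a region (28.7%). For RNA processing 7 of the 8 members of 30 with an NfiB-only region had it at the promoter, and 2 of 30 were near a region held by all 4 (18.4 kb). Ddx39b, an RNA helicase gene, and Srsf7, a splicing factor gene, had folds of 3.20 and 3.39 and of 2.92 and 2.83 there. For chromatin genes 12 of 19 were at the promoter, of 33 members, and 11 were near a region held by all 4 (65.2 kb). For translation 9 of 30 were near an NfiB-only region, 5 at the promoter, and 4 near a region held by all 4. Of cell cycle genes (median gene 13.5 kb) 4 of 34 (11.8%) were near an NfiB-only region, against 19.5% of all genes, and 4 near a region held by all 4, close to the 12.1% of all genes. Cdk1, the kinase of mitotic entry, had an NfiB-only promoter region with folds of 5.46 and 3.12.

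Genes that mark other cells were present as well. For glia 9 of 20 genes were near an NfiB-only region and 4 near one held by all 4, for other cerebellar neurons 7 and 3 of 16, and for immune and vascular cells 4 and 1 of 15. Slc1a3, the glial glutamate transporter, had an NfiB-only region 74.9 kb away with folds of 13.0 and 9.95. No member of these lists was near an NfiX-only region, for which 0.339% of all genes are the base.

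At the NFI genes themselves, NfiB-only regions numbered 6 nearest to Nfia, 17 to Nfib, 0 to Nfic and 3 to Nfix, and regions held by all 4 numbered 6, 4, 4 and 0. NfiX CD1 had no peak region nearest to Nfix and NfiX Mixed had 2, against 7 in NfiB CD1 and 8 in NfiB Mixed. An intronic region of Nfia had ranks of 96.7 and 94.6 in NfiX and 65.9 and 64.2 in NfiB (chr4:97775980-97777227), and one of Nfic had 90.7 and 80.9 in NfiX and 61.1 and 68.0 in NfiB (chr10:81435324-81435935). Both leaned to NfiX, but of the 14 regions held by all 4 near the NFI genes 2 leaned to NfiX (14.3%) and 6 to NfiB (42.9%). The promoters of Nfia and Nfib had NfiB-only regions with folds of 3.81 and 4.72 and of 3.78 and 3.76, low in the NfiB lists.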

How the data were processed

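ChIP-seq libraries of NFIX, NFIB and NFIA were used as 1 deposited peak list per library. Per the submitters' processing notes, Bowtie2 2.2.6, SAMtools 1.4.1 and MACS2 2.1.0 were used with build mm10. Whether the inputs served as controls, the read filters and the peak threshold were not given in the sources used here. A peak's deposited fold is a ratio over the local background made by the authors. The authors also deposited −log10 p and −log10 q values per peak. Read totals were not used. Under a Poisson model, a whole fragment number and a background matching both values within 0.002 were found for 100% of peaks.

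Peaks were merged at 1 bp overlap with Python 3.11.15, numpy 2.4.6, pandas 2.3.3 and scipy 1.17.1, and figures were drawn with matplotlib 3.10.9. The place and nearest start of a region were taken at its strongest summit from GENCODE M21. No genome sequence was used, so the motif search, planned at every summit, covers 101 bp windows inside exons or promoters. Library values were compared by an exact two-sided permutation (smallest p 0.333), 3 planned values and the palindrome rank difference, with no adjustment since none can pass. Scripts were tested on simulated peaks.

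The members, the 15 gene lists (396 entries, all 395 genes matched) and the motifs were chosen with earlier results of these data known. Named are the 10 highest regions of each set and 6 highest NfiB-only promoters by mean percentile of fold, the 8 regions leaning most to each factor, up to 4 members per list and set, and the 4 NFI genes. The palindrome rank comparison, the quintiles and the printed windows were chosen after seeing the data. Alternatives were equal list length, a stricter q, a wider merge, other windows and leaving out each library.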

Additional observations from a re-analysis of the deposited data

How the results depend on the processing

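Of 170 alternative values over 21 results, 99 stayed near the main value or kept their direction, 70 moved and 1 reversed. The reversal was the promoter share of whole lists, where NfiX minus NfiB was 0.420 percentage points with equal lists by fold. With equal lists by fold and, chosen after seeing the data, by −log10 p, NfiX-only regions numbered 722 and 745, NfiB-only regions 598 and 692 and regions held by all 4 numbered 3467 and 3702. The promoter share was then 3.46% and 3.89% for NfiX only and 1.51% and 7.08% for NfiB only, so that the order of these sets turned by fold, and that of regions held by all 4 was 1.50% by fold. The share with both NfiA peaks was 74.1% and 85.5% for NfiX only, 87.6% and 94.2% for NfiB only and 98.9% and 99.7% for all 4. The palindrome share was 3.45% and 3.85% for NfiB only and 15.5% and 17.0% for all 4, and list genes near NfiX-only and NfiB-only regions numbered 20 and 19 by fold. With −log10 q of 5 or more, the NfiB-only promoter share was 11.8% and the NfiA shares were 25.0%, 23.6% and 95.9%. A 5 kb promoter window gave 12.1%, 22.4% and 7.55%. A limit of 10 kb to the nearest start left 0, 123 and 49 list genes. The longer palindrome, added after seeing the data, gave 0% for NfiX only, 0% for NfiB only and 5.96% for all 4. A longer motif lowers palindrome counts by construction. Shorter lists can move a set either way: equal lists by fold raised NfiX-only regions from 124 to 722 and lowered NfiB-only regions from 9113 to 598. The causes of the changes with list length and of the other changes were not tested.

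Leaving out each library in turn gave 203 to 1728 NfiX-only, 9332 to 19430 NfiB-only and 6557 to 16773 regions held by all 4, with the highest of the first and last without NfiX CD1. Promoter shares ran from 9.39 to 13.8% for NfiB only and from 2.42 to 4.19% for all 4. NfiA shares ran from 3.59 to 35.9%, 8.38 to 35.9% and 69.5 to 93.2%, and palindrome shares from 32.1 to 77.8%, 1.40 to 3.48% and 11.9 to 28.1%. List genes ran from 7 to 56 for NfiX only and from 144 to 229 for all 4, regions leaning to NfiX from 2056 to 5560 and to NfiB from 2685 to 6328. The palindrome rank difference ran from 37.9 to 54.1.

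Pairing the libraries by background as a replicate block gave the same differences, -5.22 percentage points for promoters, -60.5 bp for width, 15.8 points for the palindrome and 46.0 rank points, each with an exact sign-flip p of 0.5, the smallest possible. The labels share only the background, and over the regions held by all 4 the CD1 minus Mixed rank of NfiX and of NfiB had a Spearman correlation of 0.286. Fragment numbers at summits were low, with medians of 21.0 in NfiX CD1 (7497 peaks) and 22.0 in NfiX Mixed (21443 peaks). Their part in the list lengths was not tested. The 285 readable windows limit the motif results to exons and promoters.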
